A study of Homo sapiens with 95 samples.

Results

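The IL-1 family and CXCL chemokine genes described here are IL1A, IL1B, IL1RN, IL18, IL6, CXCL1, CXCL2, CXCL3 and CXCL8. They were taken by gene symbol from a list drawn up with earlier results of these data known, and are 9 of the 27978 genes listed in each count file. All 9 symbols were found. The data are sparse full length (SFL) RNA-seq counts of AALE, a human bronchial epithelial cell line that was immortalized and, for this study, grown in 24-well plates. SFL is a multiplexed, ribosomal RNA-depleted RNA-seq method, and 95 samples were profiled in 32 combinations of 8 genotypes and 4 treatments. Treatment was with cigarette smoke condensate (CSC) at 24 μg/ml, benzo(a)pyrene (BaP) at 173 μM, the tobacco nitrosamine NNK at 490 μM, or the solvent DMSO. The combination of FGFR1 and CSC had 2 samples and each of the other 31 had 3.

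FAT1 and CDKN2A cells were CRISPR knockouts, and their control was cells transfected with the pSpCas9-EGFP plasmid without a guide RNA (GFP). NRF2, FGFR1, NRG1 and PIK3CA cells overexpressed the named gene, NRF2 being the protein of NFE2L2, and their control carried an empty vector with the reporter HcRed. All 8 lines share the immortalized AALE background. Whether a line was a clone or a pool, and how long the chemicals were applied, is not given in the sources used here. The study calls the samples of a combination biological replicates, but the labels do not tie them to separate cultures, so p-values measure the spread between these samples, which may be technical.

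Interleukin-1 is an early alarm signal of epithelium. IL-1α and IL-1β, encoded by IL1A and IL1B, bind the same receptor, which signals through MyD88 and IRAK kinases to NF-κB and AP-1, and the receptor antagonist encoded by IL1RN occupies that receptor without signalling. IL-18 belongs to the same family and is processed by caspase-1 like IL-1β, while IL-6 and the neutrophil-attracting chemokines CXCL1, CXCL2, CXCL3 and CXCL8 are classical genes switched on downstream of the IL-1 receptor.

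A depth of 287446 to 2116383 counted reads per sample, with a median of 934235, sets what can be seen. At that depth 3 counts equal 1.42 to 10.4 CPM (counts scaled to a library size of 1e+06), and intervals and floors given here cover counting error only. The perturbed genes moved as labelled, with log2 fold changes over the control of -1.81 for FAT1, -1.16 for CDKN2A, 2.73 for NFE2L2, 4.54 for FGFR1, 8.23 for NRG1 and 2.63 for PIK3CA, and in each case without overlap of the samples. All 8 markers of airway basal epithelium were read in all 95 samples. Of 8 leukocyte markers, CD3E, MS4A1 and HLA-DRA had 0 reads in every sample and PTPRC and LYZ had a read in 5 samples each, whereas CD68 was read in 94. COL1A1, a fibroblast marker, was read in all 95, while COL3A1, another, was read in 2.

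Levels are given as TMM-scaled CPM. IL1A and IL18 were read in all 95 samples, with 4508 and 4977 reads in total. IL1B had 713 reads in 93 samples, IL1RN 601 reads in 90 samples and CXCL2 336 reads in 82 samples. The other genes were near the limit of detection, as CXCL8 had 113 reads in 54 samples, CXCL1 108 in 50, CXCL3 78 in 46 and IL6 59 in 39. No sample held more than 4 reads of IL6.

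CXCL1, CXCL2 and CXCL3 are close copies, and this bears on how their reads can be told apart. All lie on chromosome 4 in the hg19 build, CXCL1 at chr4:74735110-74737025 on the plus strand, CXCL2 at chr4:74962757-74964913 and CXCL3 at chr4:74902306-74904524 on the minus strand. Their coding sequences are 324 bases long and identical at 93.5% of positions between CXCL1 and CXCL2, 90.7% between CXCL1 and CXCL3 and 94.4% between CXCL2 and CXCL3. The stretch from coding base 162 to 236 is shown, as long as a 75-base read, since capitals mark the only 3 positions at which these genes differ in it.
CXCL1: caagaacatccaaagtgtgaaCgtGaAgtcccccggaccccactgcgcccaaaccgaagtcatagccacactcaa
CXCL2: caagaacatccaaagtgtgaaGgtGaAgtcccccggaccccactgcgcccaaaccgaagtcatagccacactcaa
CXCL3: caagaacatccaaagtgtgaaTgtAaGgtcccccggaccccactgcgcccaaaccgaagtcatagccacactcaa
Of all 75-base windows in the transcripts, 7.56% of those of CXCL2, 4.57% of those of CXCL3 and 0.233% of those of CXCL1 occur unchanged in another of the 3 genes. Reads from such windows align to more than 1 gene, so the counts of these 3 genes are uncertain by that share. IL18 (chr11:112013976-112034819, minus strand) and IL6 (chr7:22765503-22771621, plus strand) overlap annotated genes on the opposite strand, among them IL6-AS1. Whether counting used the strand is not given in the sources used here, so reads of those overlaps cannot be assigned.

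The promoters of these genes differ in the letters of the 2 factor families named above. A κB match (GGANTTTCC) was found within 250 bases before to 50 bases after the RefSeq start of IL6, CXCL1, CXCL2, CXCL3 and CXCL8, and in 1.64% of all 27305 promoters of the same length. An AP-1 match (TGANTCA) was found for IL1A, IL1RN and CXCL8, and in 7.76% of all promoters. Both strands were searched. The windows around the matches nearest the start are shown with the match in capitals, because IL1A and IL1RN hold AP-1 letters without κB letters, CXCL1, CXCL2, CXCL3 and IL6 the reverse, and CXCL8 both.
IL1A, chr2:113542071-113542097, minus strand, AP-1: aaaggcgaagaagacTGACTCAggctt
IL1RN, chr2:113875310-113875346, plus strand, AP-1: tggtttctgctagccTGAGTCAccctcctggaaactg
IL6, chr7:22766732-22766770, plus strand, κB: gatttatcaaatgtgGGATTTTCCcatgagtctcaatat
CXCL1, chr4:74735017-74735055, plus strand, κB: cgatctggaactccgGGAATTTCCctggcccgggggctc
CXCL2, chr4:74964966-74965004, minus strand, κB: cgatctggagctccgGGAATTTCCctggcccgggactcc
CXCL3, chr4:74904461-74904499, minus strand, κB: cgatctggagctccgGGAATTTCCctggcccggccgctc
CXCL8, chr4:74606180-74606218, plus strand, κB: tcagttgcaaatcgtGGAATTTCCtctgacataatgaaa
CXCL8, chr4:74606134-74606170, plus strand, AP-1: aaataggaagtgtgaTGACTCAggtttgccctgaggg
These windows come from RefSeq promoter sequences of 8 of the 9 genes, placed on GRCh37, the assembly of hg19, by exact match. The letters of the motifs were chosen after the promoters were read. Letters for the antioxidant response element (TGANNNNGC), which binds NRF2, matched in IL1A, CXCL1 and CXCL8 and in 42.1% of all promoters, with 1 of the IL1A matches overlapping an AP-1 match. The core letters bound by the aryl hydrocarbon receptor (GCGTG) matched in IL1A alone of the 8, and in 36.3% of all promoters. A match describes letters in a window and not a used site.

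Exon length is taken here as all annotated exons of a gene joined. Values per kilobase thus depend on the transcripts annotated, from 1 for IL1A to 14 for IL1RN. Per kilobase of exon, IL18 was the most abundant of the 9 genes in DMSO-treated cells, with a median of 24.1 CPM per kilobase over 24 samples. IL1A followed at 10.3, CXCL2 at 1.96, IL1B at 1.38 and IL1RN at 1.2 CPM per kilobase. The sample ranges of IL18, 12.3 to 40.7, and of IL1A, 4.84 to 20.9, overlapped, and those of CXCL2, IL1B and IL1RN covered nearly the same span, 0 to 4.46, 0 to 3.66 and 0 to 3.59. With CSC the order of the leading pair was turned, with IL1A at a median of 37.4 and IL18 at 19.5 CPM per kilobase. With BaP the medians were 31.2 and 18.3, and with NNK 20.3 and 21.1, for IL1A and IL18 respectively.

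The comparison of each chemical with DMSO asks which transcripts respond to exposure, and of the 9 genes IL1A had the smallest p with each chemical. Over the 8 lines together, IL1A, IL1B and IL1RN were raised by CSC, BaP and NNK, and IL18 was slightly lower with each chemical. The genes were not tested against each other. The chemicals were given at different doses, so their values stand side by side and are not compared with each other, and all 3 comparisons share the same DMSO samples. Of the 9 genes, 7 passed the filter of a mean count above 1 and were tested with limma, while IL6 and CXCL3 were not tested. With CSC, 4 of the 7 passed an adjusted p of 0.05 (3 higher and 1 lower), against 55.1% of all genes tested (28.0% higher and 27.1% lower). With BaP it was 5 of 7 (4 higher and 1 lower), against 51.0% of all genes (26.1% higher and 24.9% lower). With NNK it was 4 of 7 (3 higher and 1 lower), against 51.8% of all genes (26.1% higher and 25.7% lower). With 7 genes tested, these counts were not tested against those of all genes, and the changes are given gene by gene.

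IL1A, on chromosome 2 (chr2:113531502-113542070, minus strand), had 9.76 CPM in the lowest, 20.9 CPM in the median and 42.2 CPM in the highest of 24 DMSO-treated samples. Across the 23 CSC-treated samples the corresponding values were 26.9, 75.4 and 123 CPM. They were 24.4, 62.8 and 119 CPM with BaP and 16.0, 41.0 and 81.4 CPM with NNK, in 24 samples each. The ranges overlapped when lines were pooled, since the lines differ in their DMSO level. Within the model that includes genotype, the IL1A log2 fold change was 1.65 with CSC (SE 0.08, limma adjusted p = 1.30e-38), a 3.15-fold increase that stood at the 99.8 percentile of all genes tested. With BaP it was 1.40 (SE 0.09, limma adjusted p = 1.46e-30) and with NNK 0.90 (SE 0.09, limma adjusted p = 1.14e-15). The median log2 fold change of all genes was 0.003, 0.012 and 0.001 in the respective comparisons.

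**Figure D1:**
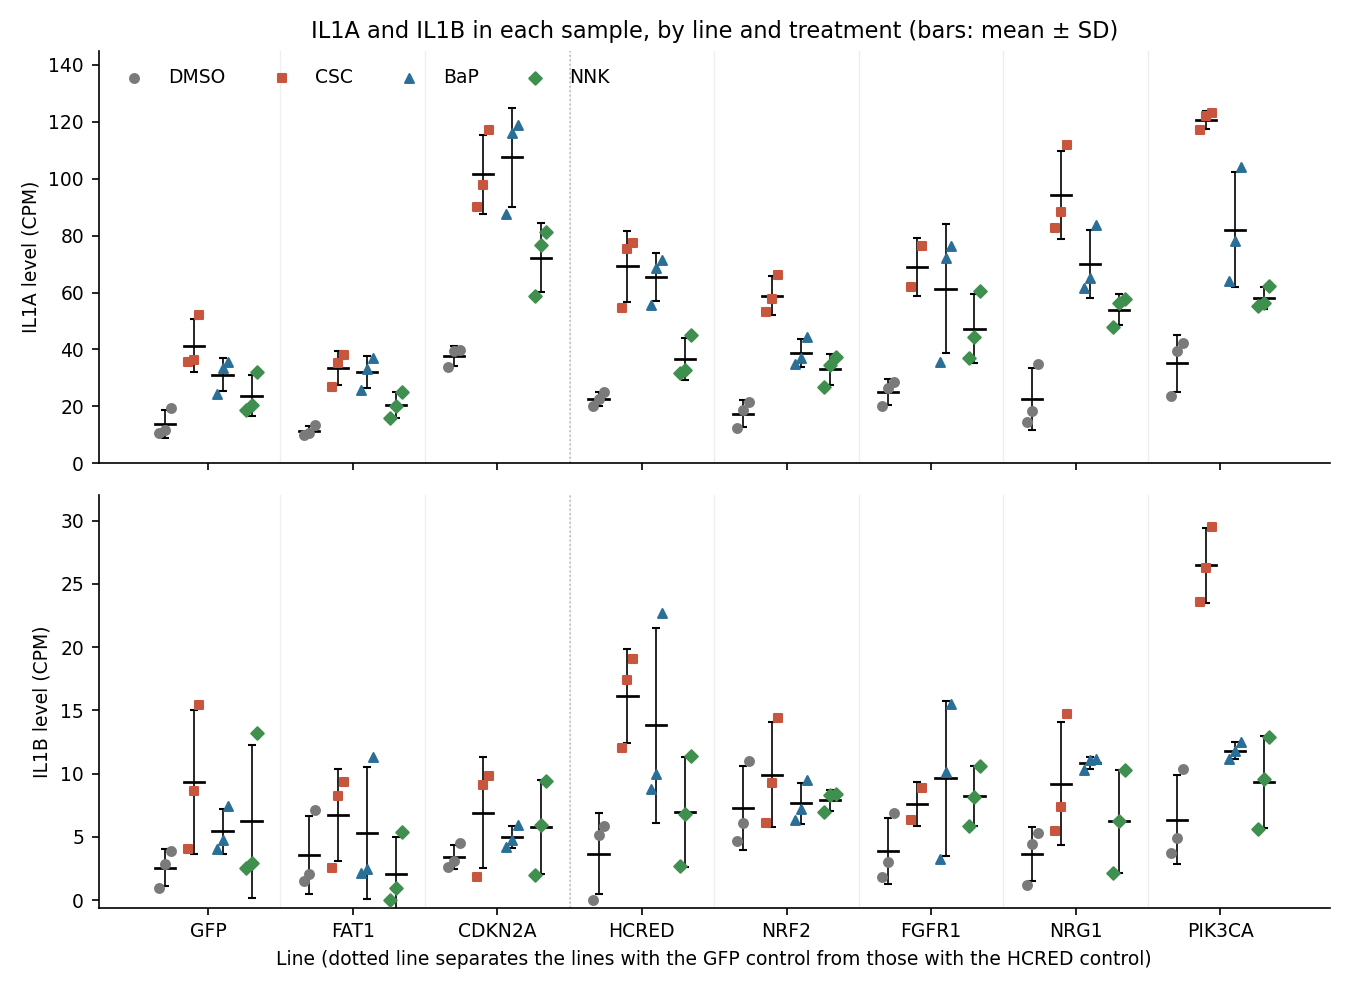
IL1A (top) and IL1B (bottom) in CPM in each of the 95 samples, by line and treatment, with each point a sample and black bars giving the mean and SD of a combination. All CSC- and BaP-treated samples of a line lie above its DMSO-treated samples for IL1A, up to 123 CPM in PIK3CA cells with CSC, while IL1B reaches at most 29.5 CPM.

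The IL1A response was then read line by line. In GFP control cells the DMSO-treated samples had 10.6, 11.5 and 19.4 CPM, those with CSC 35.6, 36.4 and 52.1 CPM, those with BaP 24.4, 33.6 and 35.4 CPM and those with NNK 18.8, 20.4 and 32.1 CPM. HcRed control cells had 20.2, 22.6 and 25 CPM with DMSO, 54.7, 75.4 and 77.4 CPM with CSC, 55.7, 68.6 and 71.6 CPM with BaP and 31.8, 32.7 and 45.2 CPM with NNK. Each chemical thus gave separate samples in HcRed cells, and in GFP cells only the NNK samples overlapped with DMSO.

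Among the knockouts, FAT1 cells had 9.76, 10.7 and 13.3 CPM of IL1A with DMSO, 26.9, 35.2 and 38.2 CPM with CSC, 25.9, 33.2 and 36.9 CPM with BaP and 16.0, 20.1 and 25 CPM with NNK. CDKN2A cells started higher, at 33.8, 39.6 and 39.7 CPM with DMSO, and had 90.0, 97.9 and 117 CPM with CSC, 87.6, 116 and 119 CPM with BaP and 58.6, 76.7 and 81.4 CPM with NNK. Neither knockout line showed overlap between a chemical and DMSO.

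Of the overexpressing lines, NRF2 cells had 12.2, 18.6 and 21.5 CPM of IL1A with DMSO, 53.0, 57.6 and 66.2 CPM with CSC, 34.9, 36.9 and 44.3 CPM with BaP and 26.8, 34.5 and 37.5 CPM with NNK. In FGFR1 cells the values were 20.0, 26.5 and 28.6 CPM with DMSO, 61.9 and 76.2 CPM in the 2 samples with CSC, 35.5, 72.2 and 76.5 CPM with BaP and 36.8, 44.4 and 60.7 CPM with NNK. NRG1 cells had 14.4, 18.2 and 35.0 CPM with DMSO, 82.6, 88.3 and 112 CPM with CSC, 61.6, 65.0 and 83.8 CPM with BaP and 47.7, 56.4 and 57.8 CPM with NNK. All of these samples lay above the DMSO samples of their line. The highest level of the series was in PIK3CA cells with CSC, at 117, 122 and 123 CPM, against 23.6, 39.5 and 42.2 CPM with DMSO, 64.1, 78.1 and 104 CPM with BaP and 55.4, 56.4 and 62.3 CPM with NNK.

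In 2-group limma fits within each line, IL1A was higher with CSC in 8 of 8 lines, with log2 fold changes from 1.43 in CDKN2A to 2.05 in NRG1 cells, where 8.59% of all gene-by-line tests passed as higher. With BaP it was higher in 8 of 8 lines, from 1.11 in NRF2 to 1.68 in NRG1 cells, against 5.34% of all gene-by-line tests. With NNK it passed in 5 of 8 lines, CDKN2A, NRF2, FGFR1, NRG1 and PIK3CA, and the log2 fold changes of all 8 lay between 0.70 in GFP and 1.25 in NRG1 cells, against 5.60% of all gene-by-line tests passing as higher. The NNK calls in NRF2, FGFR1 and PIK3CA cells were lost with DESeq2 and in 4, 2 and 1 of 6 fits that left out a sample, and that in NRF2 cells also with no filter beyond 1 read and in 1 fit of all 95 samples. The IL1A calls with BaP in GFP and NRF2 cells were lost with DESeq2. The samples were above DMSO without overlap in 8, 8 and 7 of 8 lines for CSC, BaP and NNK. Of all gene-by-line comparisons 16.0%, 13.0% and 12.7% were above DMSO without overlap.

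IL1B, next to IL1A on chromosome 2 (chr2:113587328-113594393, minus strand), was read at much lower levels. Its lowest, median and highest values were 0, 4.15 and 11 CPM in DMSO-treated samples, 1.86, 9.28 and 29.5 CPM with CSC, 2.16, 9.13 and 22.7 CPM with BaP and 0, 6.55 and 13.2 CPM with NNK. Over all lines the log2 fold change was 1.42 with CSC (SE 0.20, limma adjusted p = 7.62e-10), 1.06 with BaP (SE 0.21, limma adjusted p = 7.55e-06) and 0.56 with NNK (SE 0.22, limma adjusted p = 0.0278). The NNK call did not hold without replicate 1. Within lines the IL1B log2 fold change with NNK was positive in 7 of 8 and -1.03 in FAT1 cells. The CSC samples of PIK3CA cells had 23.6, 26.3 and 29.5 CPM against 3.77, 4.94 and 10.4 CPM with DMSO, the largest values of this gene. In HcRed cells CSC gave 12.0, 17.4 and 19.1 CPM against 0, 5.17 and 5.90 CPM. Within lines IL1B passed the limma test with CSC in 3 of 8, PIK3CA (log2 fold change 1.97), HcRed (2.18) and GFP (1.63, not past with DESeq2 and lost in 5 of 6 fits that left out a sample). Of all gene-by-line tests with CSC, 8.59% passed as higher. The samples did not overlap with DMSO in GFP, HcRed, NRG1 and PIK3CA cells with either CSC or BaP, and overlapped in every line with NNK. Of all gene-by-line comparisons 16.0% with CSC and 13.0% with BaP lay above DMSO without overlap. In GFP cells with BaP the separation rests on 2, 4 and 5 reads against 1, 3 and 5 with DMSO. Other separations were narrow too, from the lowest treated to the highest DMSO sample. With CSC these were 4.07 against 3.88 CPM in GFP and 5.51 against 5.32 CPM in NRG1 cells. With BaP they were 11.2 against 10.4 CPM in PIK3CA cells.

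IL1RN, the antagonist gene (chr2:113856892-113891593, plus strand), had 0, 4.47 and 13.4 CPM as its lowest, median and highest values with DMSO, 0, 7.36 and 19.3 CPM with CSC, 0, 6.92 and 15.4 CPM with BaP and 0, 5.97 and 15.7 CPM with NNK. The log2 fold change was 0.63 with CSC (SE 0.19, limma adjusted p = 0.00299), 0.60 with BaP (limma adjusted p = 0.00506) and 0.49 with NNK (SE 0.20, limma adjusted p = 0.0311). The call with NNK was lost with a correction for GC content and length (limma adjusted p = 0.0802) and without replicate 1 or 3. Within lines the IL1RN log2 fold change with CSC was positive in 5 and negative in 3, down to -0.69 in FAT1 cells. It was negative in 1 of 8 lines with BaP (-0.26 in FAT1) and in 1 of 8 with NNK (-0.34 in GFP). None of these negative values passed. HcRed was the only line in which IL1RN passed on its own, with 13.4, 17.4 and 18.1 CPM with CSC against 5.76, 6.03 and 7.87 CPM with DMSO (log2 fold change 1.19, not past with DESeq2 or without HcRed DMSO replicate 1).

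IL18, which encodes a cytokine stored as a precursor in epithelial cells, had a median of 62.7 CPM with DMSO (range 32 to 106), 50.9 with CSC (26.9 to 89.2), 47.5 with BaP (31.8 to 88.6) and 55.0 with NNK (29.3 to 78.5). The log2 fold change was -0.22 with CSC (SE 0.07, limma adjusted p = 0.00389), -0.22 with BaP (limma adjusted p = 0.00488) and -0.20 with NNK (limma adjusted p = 0.0111). After the correction for GC content and length the values were 0.04, -0.02 and 0.04, with limma adjusted p of 0.714, 0.873 and 0.699, so the direction depends on that correction. The calls with CSC and BaP were also lost without replicate 3, and the call with NNK without replicate 2 or 3. IL1A, IL1B and IL1RN stayed positive under the correction, with log2 fold changes of 1.94, 1.63 and 1.14 for IL1A, 1.55, 1.18 and 0.70 for IL1B and 0.61, 0.58 and 0.47 for IL1RN with CSC, BaP and NNK.

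**Figure D2:**
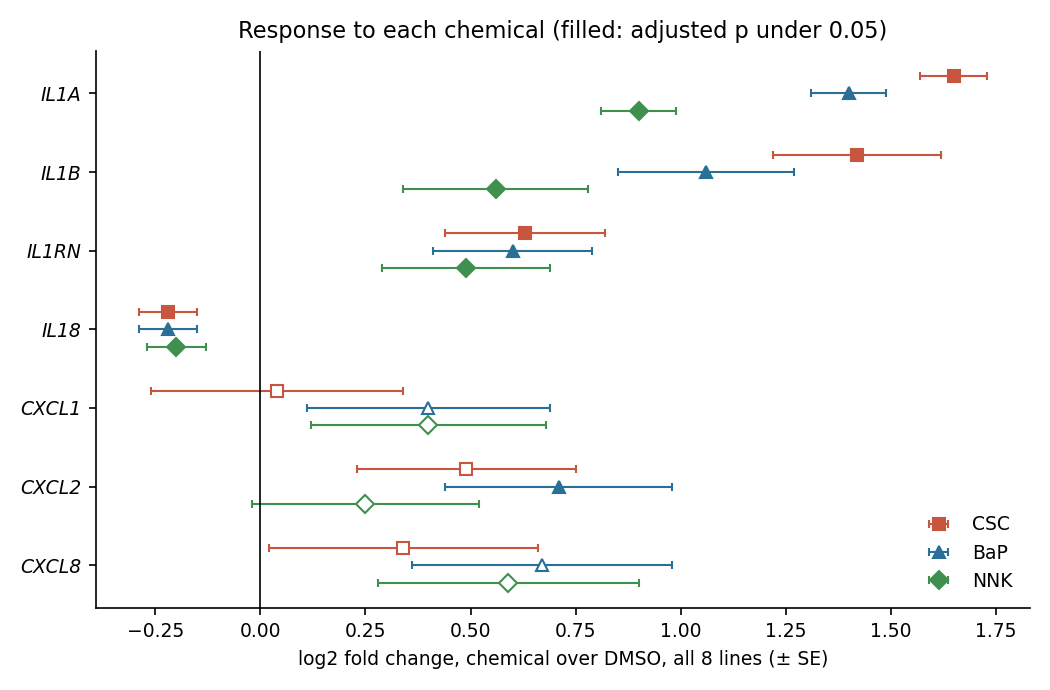
Log2 fold change of each chemical over DMSO across the 8 lines for the 7 tested genes, with bars of 1 SE and filled symbols for an adjusted p under 0.05 in limma. IL1A has the largest values, 1.65 with CSC, 1.40 with BaP and 0.90 with NNK, and IL18 lies just below 0.

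The chemokine genes gave few reads. CXCL2 rose with BaP over all lines, with a log2 fold change of 0.71 (SE 0.27, limma adjusted p = 0.0184), a call lost without replicate 1 or 3. Within lines its value with BaP was positive in 5 and negative in 2 of 7 tested, down to -1.19 in NRF2 cells. No line passed on its own. The CXCL2 values over all lines with CSC (0.49, limma adjusted p = 0.107) and NNK (0.25) did not pass. CXCL8, the gene of interleukin-8, had log2 fold changes of 0.34, 0.67 and 0.59 with CSC, BaP and NNK (limma adjusted p = 0.37, 0.0625 and 0.0992). With the GC and length correction these were 0.74, 0.98 and 0.92, of which BaP (limma adjusted p = 0.0113) and NNK (0.023) passed and CSC (0.0622) did not. CXCL1 had log2 fold changes of 0.04, 0.40 and 0.40, and none passed (limma adjusted p = 0.921 with CSC and 0.247 with BaP).

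For the untested genes the pooled reads give the level. IL6, a cytokine of the acute phase response, had 0.350 reads per 1e+06 with DMSO (95% exact Poisson interval 0.160 to 0.664), 0.761 with CSC (0.443 to 1.22), 0.718 with BaP (0.402 to 1.18) and 0.878 with NNK (0.521 to 1.39). The total was 9, 17, 15 and 18 reads, the intervals overlap, and the differences were not tested. CXCL3 had 0.855, 0.672, 1.24 and 0.732 reads per 1e+06 with DMSO, CSC, BaP and NNK.

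Whether the response to a chemical differed between lines was tested by the interaction of genotype and chemical in limma. None of the 7 tested genes passed for CSC, BaP or NNK, with the lowest adjusted p at 0.608, 0.875 and 0.933, where 0.813%, 0.202% and 0.0626% of all genes passed. At an unadjusted p under 0.05 the count was 0 for each chemical, and it was 0 with edgeR and 0 with DESeq2. Within each line 5 to 9 of the 9 genes were tested with CSC, 4 to 8 with BaP and 4 to 7 with NNK. Of all gene-by-line tests 16.3%, 10.3% and 10.1% passed with CSC, BaP and NNK, in either direction. Among the tests of the 9 genes, 13, 9 and 5 passed. Beyond IL1A, IL1B and IL1RN these were IL18 in HcRed cells with CSC (log2 fold change -0.48, not past with DESeq2 or with the GC correction) and CXCL8 in CDKN2A cells with BaP (1.85, limma adjusted p = 0.0427). CXCL8 had 4.27, 9.50 and 11.3 CPM in those BaP samples against 0, 2.05 and 8.12 CPM with DMSO, which overlap, and the call was lost with edgeR, with DESeq2 and in the fit with the replicate number as a block. Without 1 of the 6 samples the CXCL8 value ranged from 0.62 to 2.91 and passed in 2 of 6 fits, being lost without BaP replicate 2 or 3 or DMSO replicate 1 or 2.

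Markers of other cells moved with the chemicals to some extent. The summed level of the 8 leukocyte markers, mainly CD68, had a median of 13.7 CPM with DMSO (range 6.21 to 19.0), 25.3 with CSC (10.3 to 41.9), 17.3 with BaP (4.06 to 40.8) and 14.9 with NNK (5.48 to 25.1). Summed over 7 fibroblast markers, mainly COL1A1, the medians were 17.4 with DMSO (range 8.18 to 34.9), 34.1 with CSC (14.1 to 57.0), 27.7 with BaP (12.5 to 66.9) and 32.4 with NNK (12.1 to 52.2). Their part in the result was not tested. In bulk samples such as these, fewer cells of a type and less RNA per cell cannot be told apart. CYP1A1 and CYP1B1, targets of the aryl hydrocarbon receptor, had medians of 7.55 and 68.3 CPM with DMSO, 388 and 819 with CSC, 360 and 697 with BaP and 52.3 and 183 with NNK.

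The genotype comparisons ask what each perturbation does to these genes, first with DMSO alone. With DMSO, the antagonist gene IL1RN was lower in both knockouts than in GFP control cells. For FAT1, 3 of 5 tested genes passed (26.3% of all genes), and for CDKN2A 3 of 6 (37.2% of all genes). Both counts include CXCL2, which entered the test only through the knockout samples. IL1RN had 8.53, 8.70 and 13.4 CPM in GFP, 0.888, 3.05 and 4.10 CPM in FAT1 and 1.03, 2.64 and 4.51 CPM in CDKN2A cells. Both knockouts thus lay below the control without overlap, with log2 fold changes of -1.95 (SE 0.55, limma adjusted p = 0.00623, not past with DESeq2 or without FAT1 replicate 2) and -1.84 (SE 0.55, limma adjusted p = 0.00529). The 2 comparisons share the same 3 GFP samples.

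IL1A was higher in CDKN2A cells with a log2 fold change of 1.40 (SE 0.26, limma adjusted p = 9.14e-06), whereas in FAT1 cells it was -0.33 and did not pass (limma adjusted p = 0.501). CXCL2 had 0, 0 and 0.775 CPM in GFP, 2.05, 2.66 and 5.34 CPM in FAT1 and 4.10, 4.40 and 5.41 CPM in CDKN2A cells. These values rest on 1, 12 and 15 reads, a ratio of read shares of 12.0 for FAT1 (95% exact interval 1.78 to 513) and of 15.6 for CDKN2A (2.40 to 658). The samples do not overlap. CXCL2 entered the test only through the knockout samples, since GFP has under 1 read per sample, so its limma adjusted p of 0.0352 for FAT1 and 0.00535 for CDKN2A is given as a description. The value for FAT1 did not pass with DESeq2 and passed in only 2 of 6 fits that left out a sample. CXCL8 had 11 reads in CDKN2A and 0 in GFP cells and did not pass (limma adjusted p = 0.0884). With GFP set to a floor of 3 counts over the group, its ratio of read shares was 3.82. That ratio leaves out the counting error of the 11 reads. IL18 had 32, 33.8 and 35.5 CPM in FAT1 and 36.4, 52.2 and 68.2 CPM in GFP cells (log2 fold change -0.58, limma adjusted p = 0.0289), a call lost with DESeq2, with the GC and length correction and in 4 of 6 fits that left out a sample. Without overlap, 20.0% of all genes lay above and 18.7% below GFP for FAT1, and 24.8% above and 21.4% below for CDKN2A.

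No gene of the 9 passed with DMSO in the overexpressing lines against HcRed, where limma called 7.16% of all genes for NRF2, 1.86% for FGFR1, 2.04% for NRG1 and 8.60% for PIK3CA. At an unadjusted limma p under 0.05 there were 0 of 5 tested genes for NRF2, 2 of 7 for FGFR1, 0 of 5 for NRG1 and 5 of 6 for PIK3CA. The share of all genes at that unadjusted threshold is not given here. None of the tested genes passed with edgeR or DESeq2. The nearest was IL1RN in PIK3CA cells, with 0, 1.89 and 3.46 CPM against 5.76, 6.03 and 7.87 CPM in HcRed (log2 fold change -1.99, SE 0.69, limma adjusted p = 0.0579). These samples do not overlap, and 9.90% of all genes lay below HcRed in that way.

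With the 4 treatments pooled, 12 samples of a line were set against 12 of its control, or 11 for FGFR1. The number of the 9 genes that passed was 2 of 5 tested for FAT1 (48.9% of all genes), 4 of 6 for CDKN2A (57.6%), 2 of 5 for NRF2 (21.6%), 3 of 7 for FGFR1 (13.5%), 1 of 5 for NRG1 (10.8%) and 6 of 7 for PIK3CA (27.8%). Genes at a mean count of 1 or less in the 2 lines were not tested. CXCL8 in CDKN2A, CXCL3 in FGFR1 and CXCL1 in PIK3CA cells passed that filter only through the line in which they are high. Their control has under 1 read per sample, so a gene so selected had to have more reads per sample in that line. Its p supports nothing and is given as a description. CXCL1 in FGFR1 and CXCL8 in PIK3CA cells entered the test in the same way and did not pass. The counts above for CDKN2A, FGFR1 and PIK3CA include genes so selected and are not to be read against the shares of all genes. The FAT1 and CDKN2A comparisons share the GFP samples, and the others share the HcRed samples.

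IL1RN was lower in 4 of the 6 lines. Its lowest, median and highest values over 12 samples were 5.65, 12.6 and 19.3 CPM in GFP, 0, 2.14 and 4.10 CPM in FAT1 and 0, 4.96 and 13.0 CPM in CDKN2A cells. All 12 FAT1 samples lay below all 12 GFP samples, as did 2.70% of all genes, with a log2 fold change of -2.33 (SE 0.30, limma adjusted p = 3.17e-10). In CDKN2A cells 7 of 12 samples lay below the lowest GFP sample (log2 fold change -1.54, SE 0.28, limma adjusted p = 3.58e-06).

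Against HcRed, where the median IL1RN level was 10.6 CPM, the medians were 3.55 CPM in FGFR1, 3.01 CPM in PIK3CA, 6.83 CPM in NRG1 and 9.57 CPM in NRF2 cells. The log2 fold change was -1.97 in PIK3CA (SE 0.26, limma adjusted p = 4.84e-09) and -1.46 in FGFR1 cells (SE 0.25, limma adjusted p = 9.98e-06), and 11 of 12 and 9 of 11 samples lay below the lowest HcRed sample. It was -0.53 in NRG1 (limma adjusted p = 0.0789) and -0.36 in NRF2 cells (limma adjusted p = 0.218), which did not pass. The 4 calls of IL1RN held with edgeR, DESeq2, the replicate block and the GC and length correction.

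**Figure D3:**
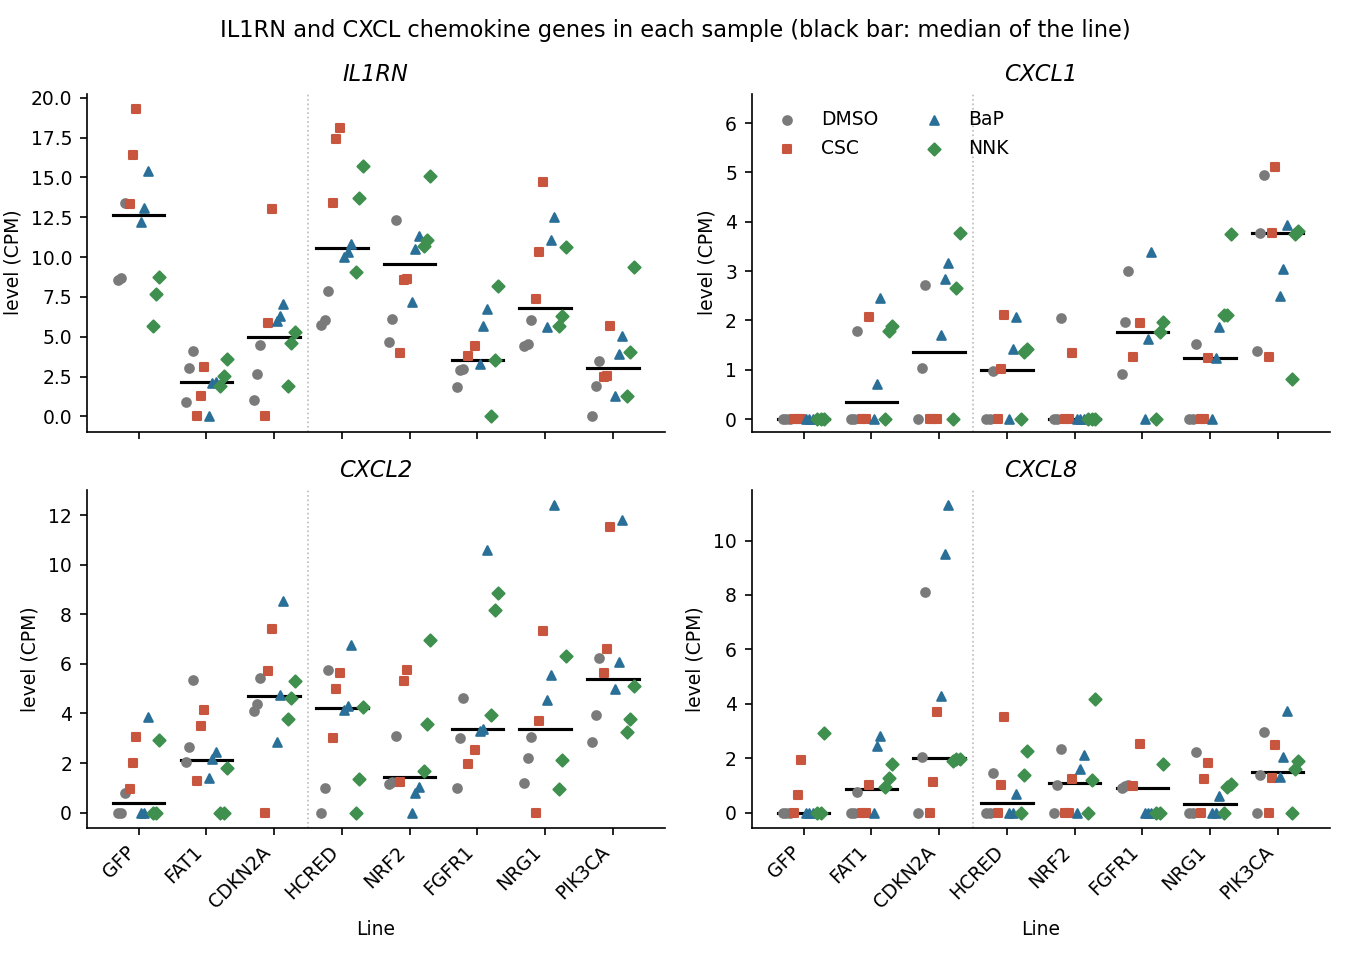
IL1RN, CXCL1, CXCL2 and CXCL8 in CPM in each sample by line, with color and shape for the treatment and a black bar for the median of the line. IL1RN is at 12.6 CPM in GFP and 2.14 CPM in FAT1 cells, and CXCL1 has no read in any GFP sample.

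IL1A itself followed a different order of lines. Its median over the 4 treatments was 25.4 CPM in FAT1, 28.2 in GFP, 35.9 in NRF2, 44.4 in FGFR1, 50.0 in HcRed, 59.7 in NRG1, 63.2 in PIK3CA and 84.5 CPM in CDKN2A cells. CDKN2A cells exceeded GFP with a log2 fold change of 1.51 (SE 0.11, limma adjusted p = 5.55e-19), and 9 of their 12 samples lay above the highest GFP sample. PIK3CA cells exceeded HcRed by 0.57 (SE 0.09, limma adjusted p = 9.93e-07). NRF2 cells were lower at -0.43 (SE 0.11, limma adjusted p = 0.00167, lost without replicate 2). In NRG1 cells the value of 0.31 (limma adjusted p = 0.0392) was lost with DESeq2, with the GC and length correction, with no filter on counts and without any one replicate number. FAT1 (-0.17) and FGFR1 cells (0.04) did not pass.

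IL1B passed in PIK3CA cells alone of the 6 lines, with a log2 fold change of 0.58 (SE 0.20, limma adjusted p = 0.0187), which was lost with DESeq2, with the replicate block and without replicate 2. Only the 3 samples with CSC lay above the highest HcRed sample. IL18 was higher in NRF2 (0.39, SE 0.10, limma adjusted p = 0.00123) and PIK3CA cells (0.33, SE 0.09, limma adjusted p = 0.00171, lost without replicate 1). It was lower in FAT1 (-0.31, limma adjusted p = 0.0197) and FGFR1 cells (-0.30, limma adjusted p = 0.0413). The FAT1 call was lost with the GC and length correction and without replicate 1 or 2, and the FGFR1 call with DESeq2, with no filter on counts and without replicate 2 or 3.

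CXCL2 had 56 reads in CDKN2A and 13 in GFP cells (log2 fold change 1.80, SE 0.38, limma adjusted p = 4.47e-05), and 9 of 12 samples were above the highest GFP sample. In FAT1 cells CXCL2 had 25 reads and did not pass (0.78, limma adjusted p = 0.104), and with NNK its samples had 0, 0 and 1.79 CPM against 0, 0 and 2.92 CPM in GFP. CXCL8 had 40 reads in CDKN2A and 4 in GFP cells, and 5 of 12 samples were above the highest GFP sample (log2 fold change 1.86, SE 0.44, limma adjusted p = 2.25e-04, a gene tested through CDKN2A cells alone). CXCL1 had 0 reads in all 12 GFP samples, 16 reads in CDKN2A and 9 in FAT1 cells, and was not tested in these lines. With GFP set to a floor of 3 counts over the group, the ratios of read shares were 5.04 and 3.03. These ratios leave out the counting error of the 16 and 9 reads.

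In PIK3CA cells CXCL1 was read in 12 of 12 samples, 38 reads against 10 in HcRed, with a log2 fold change of 1.44 (SE 0.40, limma adjusted p = 0.00386, lost without replicate 1), and was tested through PIK3CA cells alone. CXCL2 passed there too (0.77, SE 0.29, limma adjusted p = 0.037), but not with edgeR or DESeq2 or without any one replicate number. CXCL3 had its highest pooled level in FGFR1 cells, with 26 reads against 7 in HcRed (1.36, SE 0.45, limma adjusted p = 0.032), was tested through FGFR1 cells alone and in 1 of the 6 lines, and the call was lost with the replicate block and without replicate 2 or 3. In FGFR1 cells CXCL1 had 18 reads and CXCL2 49, neither past the test (limma adjusted p = 0.171 and 0.5). IL6 passed the filter in none of these comparisons, with its highest pooled level in PIK3CA cells, 14 reads or 1.06 reads per 1e+06 (95% exact Poisson interval 0.577 to 1.77), against 3 reads or 0.254 (0.0525 to 0.744) in HcRed, a difference that was not tested.

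**Figure D4:**
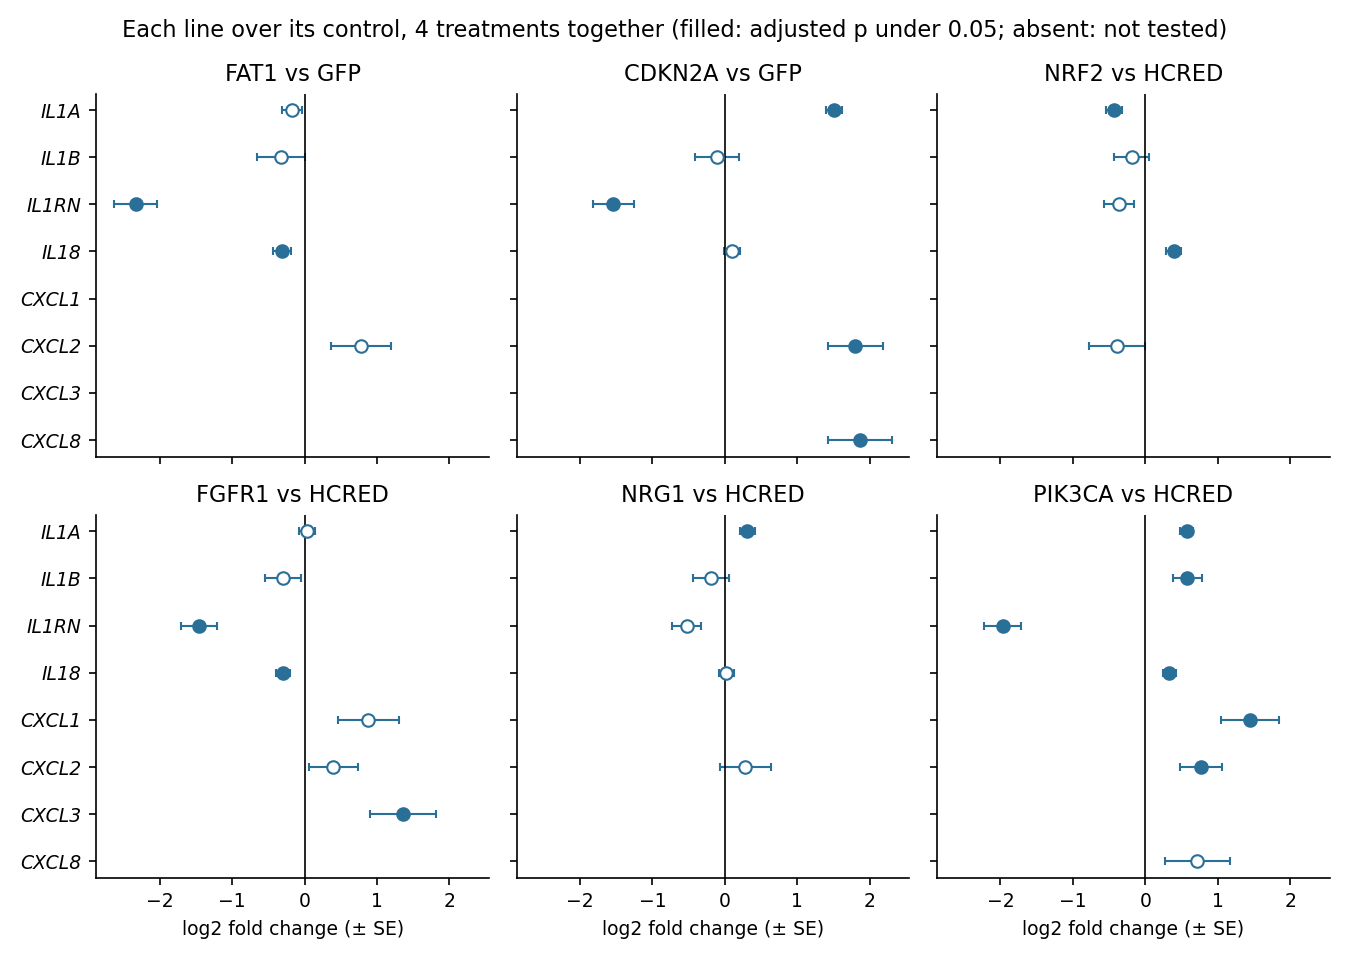
Log2 fold change of each of the 6 lines over its control with the 4 treatments together, with bars of 1 SE, filled circles for an adjusted p under 0.05 in limma and no symbol where a gene was not tested. IL1RN lies to the left in each panel, from -2.33 in FAT1 to -0.36 in NRF2 cells, and passes in FAT1, CDKN2A, FGFR1 and PIK3CA.

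The lines also differed in the summed markers of other cells, which again were mainly CD68 and COL1A1. The summed leukocyte markers had medians of 10.6 CPM in GFP (range 4.06 to 18.3), 15 in FAT1, 14.1 in CDKN2A, 15.1 in HcRed (5.48 to 32.3), 17.9 in FGFR1 and 25 in PIK3CA cells (13.2 to 41.9). The summed fibroblast markers had medians of 30.5 CPM in GFP, 42.6 in CDKN2A, 28.0 in HcRed and 14.5 in PIK3CA cells. Their part in the result was not tested.

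The agonist and the antagonist can be set against each other per kilobase of exon. The joined annotated exons span 2017 bases for IL1A and 3734 for IL1RN, so the size of the ratios depends on the annotation. With DMSO the mean IL1A level was 2.51 times that of IL1RN in GFP, 7.78 times in FAT1 and 25.6 times in CDKN2A cells. It was 6.38 times in HcRed, 4.20 in NRF2, 8.31 in NRG1, 17.9 in FGFR1 and 36.4 times in PIK3CA cells. With CSC it was 4.69 times in GFP, 42.5 in FAT1, 29.9 in CDKN2A, 7.86 in HcRed and 62.5 in PIK3CA cells. With NNK it was 5.98 times in GFP, 14.2 in FAT1, 34.0 in CDKN2A, 5.28 in HcRed and 21.9 in PIK3CA cells. These ratios are descriptions that rest on as few as 4 IL1RN reads, in FAT1 cells with CSC, and on 7 in PIK3CA cells with DMSO. Across the 32 group means of log2 CPM, which share lines and libraries, IL1A and IL1RN had a Pearson r of 0.09.

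**Figure D5:**
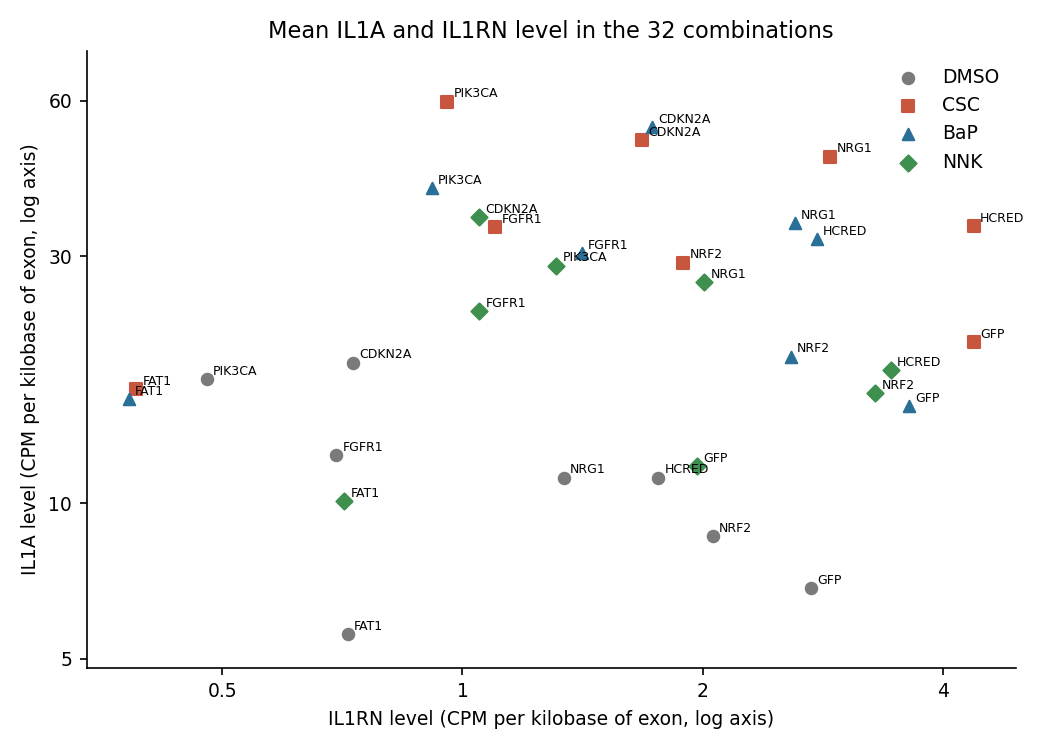
Mean IL1A against mean IL1RN level in CPM per kilobase of exon, both on log axes, for the 32 combinations of line and treatment. PIK3CA cells with CSC stand highest for IL1A at 59.8 with IL1RN at 0.957, and GFP cells with DMSO stand at 6.86 and 2.73.

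Other pairs moved together more closely across those 32 means, with r of 0.70 for IL1A and IL1B, 0.66 for IL1A and CXCL2, 0.62 for IL1B and CXCL2 and 0.59 for CXCL1 and CXCL2, and with -0.47 for IL1RN and CXCL1. Of the 10061 other genes averaging 10 counts or more, those most like IL1A were TINAGL1 (0.923), FOSL1 (0.892), which encodes a subunit of AP-1, and ITGA5 (0.890), an integrin gene. Those most like IL18 were ATIC (0.858), TUBA1C (0.850) and FASTKD2 (0.845). These are descriptions over 32 means.

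The rest of the IL-1 pathway was read from a list of 74 genes, of which 50 were tested over all lines. With CSC 23 were higher and 7 lower, with BaP 21 and 6, and with NNK 18 and 6, with median log2 fold changes of 0.14, 0.22 and 0.10. Of all genes, 28.0% were higher and 27.1% lower with CSC, 26.1% and 24.9% with BaP and 26.1% and 25.7% with NNK, and these are the shares to read each count of the pathway list against. With the correction for GC content and length the counts were 24 higher and 0 lower, 14 and 0, and 9 and 1, so nearly all lower calls are lost with it. Fewer of all genes passed with that correction too, as given in the last paragraph, so the shares above do not apply to the corrected counts. None of the 7 other IL-1 family genes on the list passed the filter on counts over all lines.

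Of 7 tested receptors and decoys, 2 were higher and 2 lower with CSC, as near to the 28.0% and 27.1% of all genes as 7 genes allow. SIGIRR, an inhibitory receptor of the family, had a log2 fold change of 0.76 and the co-receptor gene IL1RAP -0.25, but after the GC and length correction these were 0.20 and 0.06 and did not pass (limma adjusted p = 0.329 and 0.51). IL6ST, the shared signalling receptor of the IL-6 family, turned from -0.22 to 0.15 (limma adjusted p = 5.81e-05) with that correction.

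Of 23 signalling and feedback genes, 11 were higher and 4 lower with CSC, 13 and 4 with BaP, and 8 and 3 with NNK, beside 28.0%, 26.1% and 26.1% of all genes higher. ZFP36, whose protein destabilizes cytokine messages, rose by 1.19, 0.92 and 1.02 on the log2 scale with CSC, BaP and NNK. ZC3H12A, the gene of the ribonuclease regnase-1, rose by 0.99, 0.67 and 0.86. Both held with the GC and length correction, at 0.92, 0.66 and 0.78 for ZFP36 and 0.58, 0.29 and 0.49 for ZC3H12A. IRAK1, a receptor kinase, rose by 0.43, 0.39 and 0.39, and stood at -0.02, -0.06 and -0.04 after correction, none of them past the test.

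Of 7 processing and sensor genes, 5 were higher with CSC, 5 with BaP and 4 with NNK, and none was lower, beside 27.1%, 24.9% and 25.7% of all genes lower. With the GC and length correction, under which fewer of all genes passed too, 5, 3 and 1 were higher. PYCARD, the gene of the inflammasome adaptor ASC, rose by 0.94, 0.75 and 0.80, and after correction stood at 0.59 (limma adjusted p = 0.00967), 0.42 (0.0998) and 0.49 (0.0683). GSDMD, which encodes the pore protein cut by caspase-1, rose by 0.33, 0.68 and 0.72, and after correction stood at -0.18, 0.18 and 0.22, none past the test.

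Of 13 tested cytokine and chemokine genes outside the 9, 5 were higher and 1 lower with CSC, 2 and 0 with BaP and 5 and 2 with NNK, beside 28.0%, 26.1% and 26.1% of all genes higher. CSF3, the gene of the granulocyte growth factor G-CSF, rose by 2.01 with CSC (SE 0.25, limma adjusted p = 7.38e-12) and by 1.01 with BaP, and did not pass with NNK. CCL20, which attracts lymphocytes and dendritic cells, rose by 1.60, 0.78 and 0.99 with CSC, BaP and NNK, and by 1.94, 1.05 and 1.26 after the GC and length correction. LIF and IL11, cytokines that signal through IL6ST, rose by 1.48 and 1.22 with CSC.

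Across lines with the 4 treatments together, the pathway list held 18 higher and 9 lower of 46 tested genes in FAT1, 28 and 7 of 49 in CDKN2A, 3 and 9 of 50 in NRF2, 5 and 4 of 50 in FGFR1, 4 and 2 of 49 in NRG1 and 14 and 7 of 50 in PIK3CA cells. Of all genes, 25.0% were higher and 23.9% lower in FAT1, 29.4% and 28.3% in CDKN2A, 10.4% and 11.2% in NRF2, 7.25% and 6.23% in FGFR1, 5.86% and 4.91% in NRG1 and 14.0% and 13.8% in PIK3CA cells. A listed gene with few reads in the control can pass the filter only through the line in which it is high. Of the cytokine and chemokine genes outside the 9, 9 were tested in FAT1 and 12 in CDKN2A, with the same GFP samples. Genes so selected were not separated, so the list counts and the values of genes named below are descriptions. In CDKN2A cells TNFAIP3, the NF-κB feedback gene, had a log2 fold change of 2.28 (SE 0.23, limma adjusted p = 6.50e-14), CX3CL1 2.16, LIF 2.11, the adhesion gene ICAM1 2.01 and CSF1 1.96, while the kinase gene IRAK4 had -0.94 and TRAF6 -0.89. In PIK3CA cells CSF3 had 2.24 (SE 0.30, limma adjusted p = 4.20e-09), the NF-κB subunit gene RELB 1.32, LIF 1.21, ICAM1 1.13 and TNFAIP3 0.90, and IL18BP, the gene of the IL-18 decoy, -0.80.

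FAT1 cells had lower IL1R1, the signalling receptor gene, at -0.82 (SE 0.22, limma adjusted p = 0.00151) and lower IL18BP at -1.0, and higher CSF1 at 1.55, ICAM1 at 1.22, CASP1 at 1.19 and NLRP1 at 1.18. NRF2 cells had lower CCL20 at -1.48 (SE 0.43, limma adjusted p = 0.00743) and PTGS2, the gene of cyclooxygenase-2, at -0.94. CSF1 was higher in FGFR1 (1.07) and NRG1 cells (1.0).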

How the data were processed

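RNA of the AALE lines was sequenced as pooled, dual-barcoded SFL libraries (single 75-base reads). The authors trimmed reads with cutadapt 1.12, checked them with FastQC 0.11.5, aligned them with STAR 2.5.2b to hg19 and counted them per gene with featureCounts, and deposited 1 table of raw counts per sample. Strand use in counting is not given in the sources used here. Reads carried no molecular identifiers.

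Counts were TMM-scaled and fitted with limma-voom (limma 3.58.1, edgeR 4.0.16, R 4.3.3), keeping genes that averaged more than 1 count over the samples of a fit, with Benjamini-Hochberg adjustment over all genes and a threshold of 0.05. Fits over all lines had genotype as a covariate, and line comparisons over 4 treatments had treatment. Results were recomputed with DESeq2 1.42.0, with its size factors alone, with the quasi-likelihood test of edgeR, with a minimum mean of 10 counts, no filter beyond 1 read, a replicate block, a loess correction for GC content and length (span 0.3), 1 fit of all 95 samples and leaving out each replicate. Applying the GC and length correction and the size factors to the pathway list was chosen after seeing the data. The fits were tested on simulated data. GC content and length were known for 89.7% of symbols. No pair of replicates was identical or within counting noise (chi-square per degree of freedom of at least 1.13).

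The 9 genes, the pathway list and the markers were chosen with earlier results of these data known. Genes are named if they are one of the 9, are on the pathway list and passed, check a label, or are among the 3 most like IL1A or IL18. Totals ranged from 287446 to 2116383 counts.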

Additional observations from a re-analysis of the deposited data

How the results depend on the processing

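Of 64 results of single genes that passed, 749 values under other settings were computed, of which 662 stayed past the threshold in the same direction, 85 did not and 2 reversed. The causes were not tested, except that a mean count of at least 10 tests fewer genes. Depth limits IL6, CXCL1, CXCL3 and CXCL8 most.

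With a mean count of at least 10, the number of the 9 genes that passed was 2, 2 and 2 for CSC, BaP and NNK over all lines, 1 for FAT1 and 1 for CDKN2A with DMSO, and over the 4 treatments 1 for FAT1, 1 for CDKN2A, 1 for FGFR1 and 3 for PIK3CA. With DESeq2 it was 0 for FAT1 with DMSO and 0 for NRG1 over the treatments, and 2 tests within lines passed with NNK. With the GC and length correction it was 1 for PIK3CA with DMSO, and over the treatments 1 for FAT1 and 0 for NRG1. With no filter beyond 1 read it was 2 for PIK3CA with DMSO and 0 for NRG1 over the treatments, and with 1 fit of all 95 samples it was 1 for PIK3CA with DMSO.

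The log2 fold change of IL18 reversed with the GC and length correction, to 0.04 with CSC and 0.04 with NNK. That of CXCL1 with CSC, which did not pass in any of these, was -0.07 with edgeR, -0.07 with DESeq2, and ranged from -0.09 to 0.16 when a replicate was left out (-0.01 without replicate 1 and -0.09 without replicate 2).

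Leaving out a replicate gave 3 to 4 of the 9 genes for CSC, 4 to 5 for BaP and 2 to 3 for NNK over all lines. With DMSO it gave 1 to 2 for FAT1, 3 to 4 for CDKN2A, 0 to 0 for NRF2, FGFR1 and NRG1 and 0 to 1 for PIK3CA. Over the treatments it gave 1 to 2 for FAT1, 4 to 4 for CDKN2A, 1 to 2 for NRF2, 1 to 3 for FGFR1, 0 to 0 for NRG1 and 3 to 5 for PIK3CA. Within lines it gave 12 to 14 tests for CSC, 8 to 11 for BaP and 4 to 5 for NNK, and the interaction gave 0 to 0 for each chemical.

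With the replicate number as a block, 4, 5 and 4 of the 9 genes passed for CSC, BaP and NNK over all lines, 3 for FAT1 and 4 for CDKN2A with DMSO, and 15, 11 and 5 tests within lines. The block lost 3 of the 64 results, CXCL8 with BaP in CDKN2A cells, CXCL3 in FGFR1 cells and IL1B in PIK3CA cells. In 0 of 30 comparisons did all pairs of samples with the same number correlate above 0.1 in their deviations from the group mean (median r 0.0313, highest 0.176). These deviations include counting noise, so the check cannot tell whether samples with the same number were paired.

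Over all genes, with no filter beyond 1 read 12546 genes passed with BaP and 12582 with NNK, against 7337 and 7455, and the median log2 fold change of all genes moved to 0.154, 0.242 and 0.235 for CSC, BaP and NNK. With the GC and length correction 4812, 3741 and 2669 genes passed, against 7922, 7337 and 7455.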
